A study of Mus musculus with 9 samples.

Results

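Laminins are the network-forming glycoproteins of basement membranes, and nidogens, perlecan and dystroglycan link that network to its collagen, to growth factors and to the cell surface. The 10 genes described here encode the laminin chains Lama2, Lama4, Lama5, Lamb1, Lamb2 and Lamc1, the nidogens Nid1 and Nid2, perlecan (Hspg2) and dystroglycan (Dag1). They are a list of names picked for their place in the basement membrane, out of the 52780 genes in the count table, with earlier results of these data known, and all 10 passed the filter on low counts that left 19545 genes for testing.

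The cells were C2C12, an immortal mouse myoblast line that fuses into myotubes when serum is reduced. RNA was sequenced from 9 samples collected at day 4 of differentiation, 3 in each of 3 groups: control cells (labelled WT, and called si Ctrl here after the study), cells given an siRNA against the macroH2A1.1 splice isoform (si mH2A1.1), and cells given an siRNA against macroH2A1.2 (si mH2A1.2). The study lists a scramble siRNA as its control, so si Ctrl stands for transfected and not untreated cells. MacroH2A1 is a histone variant that carries a macrodomain, and the study asked how the loss of each isoform changes gene expression in fusing muscle cells. Per the labels the siRNA was used at 10 nM and delivered on days -1, 0 and 2 of differentiation, so the knockdowns were transient and no gene was deleted in any group. A polyA-selected library was read as single reads of 50 bp. The study describes the 3 samples of a group as independent biological replicates, and every p-value measures the spread between them.

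The libraries held between 36924252 and 42223108 counts assigned to genes, and the 10 genes took between 0.468% and 0.753% of a library. H2afy, the gene that encodes both macroH2A1 isoforms, was measured as 1 total. It stood at 56.3, 62.4 and 61.0 CPM (counts scaled to the library total, with the total adjusted for composition by TMM) in si Ctrl, at 38.8, 30.0 and 30.9 in si mH2A1.1 and at 46.8, 47.2 and 43.2 in si mH2A1.2, so both knockdowns lay below every control library. The log2 fold change was -0.85 (SE 0.11, adjusted p = 0.00331) in si mH2A1.1 and -0.39 (SE 0.11, adjusted p = 0.108) in si mH2A1.2, and the isoforms could not be separated. Markers of myotubes were abundant in every library, with 10 genes summing to between 15911 and 27545 CPM. The 3 macrophage markers summed to between 0.134 and 0.600 CPM, with Adgre1 alone at or under the level of 3 counts in all groups, and 4 endothelial markers summed to at most 2.99 CPM.

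A laminin is a trimer of 1 alpha, 1 beta and 1 gamma chain, and the alpha chain carries the binding sites for cell receptors. In muscle the alpha2 chain with beta1 and gamma1 is the main laminin of the fibre surface, and the beta2 chain is known for its concentration at the neuromuscular junction. Dystroglycan binds the alpha chain outside the cell through sugar chains on its own extracellular part and holds dystrophin inside, and loss of Lama2 or of dystroglycan glycosylation gives congenital muscular dystrophies.

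The ratio of the 2 beta chain genes is followed further on, so their promoters are shown, from 250 bases before to 50 bases after the RefSeq start (GRCm38.p6), 5′ to 3′ on the strand of the gene. Capitals mark GC boxes, the letters GGGCGG on either strand. Lamb1 lies at chr12:31265043-31265342 and Lamb2 at chr9:108479612-108479911, both on the plus strand.
Lamb1: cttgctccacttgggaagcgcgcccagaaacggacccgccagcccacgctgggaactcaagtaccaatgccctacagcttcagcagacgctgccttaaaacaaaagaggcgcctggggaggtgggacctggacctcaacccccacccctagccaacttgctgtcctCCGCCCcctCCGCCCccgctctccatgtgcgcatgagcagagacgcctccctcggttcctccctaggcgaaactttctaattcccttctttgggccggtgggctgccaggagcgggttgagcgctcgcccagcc
Lamb2: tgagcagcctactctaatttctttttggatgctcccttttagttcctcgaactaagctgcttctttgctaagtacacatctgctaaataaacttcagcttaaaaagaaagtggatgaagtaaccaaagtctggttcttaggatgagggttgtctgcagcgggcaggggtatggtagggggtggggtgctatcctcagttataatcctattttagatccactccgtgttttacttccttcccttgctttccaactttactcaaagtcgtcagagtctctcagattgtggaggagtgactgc
No binding was measured in these samples, so the windows describe the genes and nothing was tested on them. The Lamb1 window had 63.7% G and C, 2 GC boxes, 1 CCAAT box (CCAAT on either strand) and 2 E-boxes (CANNTG, the motif of myogenic factors, which reads the same on both strands). The Lamb2 window had 44.0% G and C, no GC box, no CCAAT box and 1 E-box, and neither window held a TATA box (TATAAA on either strand). Of 32851 promoters of the same length, 35.7% held a GC box, 37.4% a CCAAT box, 13.6% a TATA box and 72.3% an E-box, and the median content of G and C was 52.7%. Of the 10 genes, 7 had an entry in the promoter table (Dag1 had 2 entries), and Lama4, Lamc1 and Nid2 had none. The window of Lama5 held 4 GC boxes and that of Hspg2 5. The 2 Dag1 windows held 3 and 4, while Lama2 and Nid1 each had 1, and Lamb2 was the only matched gene with none.

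Compared per kb of exon, the 10 genes spanned nearly 3 orders of magnitude in si Ctrl. Hspg2, a heparan sulphate proteoglycan, was the highest at 175 ± 13.2 CPM per kb (SD, n = 3), followed by Nid1 at 119 ± 42.1 and Dag1 at 114 ± 20.9. The replicate values of Hspg2 and Nid1 overlapped, as did those of Nid1 and Dag1. Lama5 at 61.2 ± 5.72, Nid2 at 56.3 ± 15.6, Lamc1 at 46.7 ± 1.87 and Lamb2 at 44.7 ± 5.34 CPM per kb followed, each overlapping its neighbour in that order. Lamb1 stood at 28.6 ± 1.49, Lama2 at 16.8 ± 3.14 and Lama4 at 0.216 ± 0.0555 CPM per kb, and these did not overlap each other. The place of Lamb1 depended on the length used, since with the longest annotated transcript in place of all exons Lamb1 was at 49.0 and Lamb2 at 48.3 CPM per kb.

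**Figure D1:**
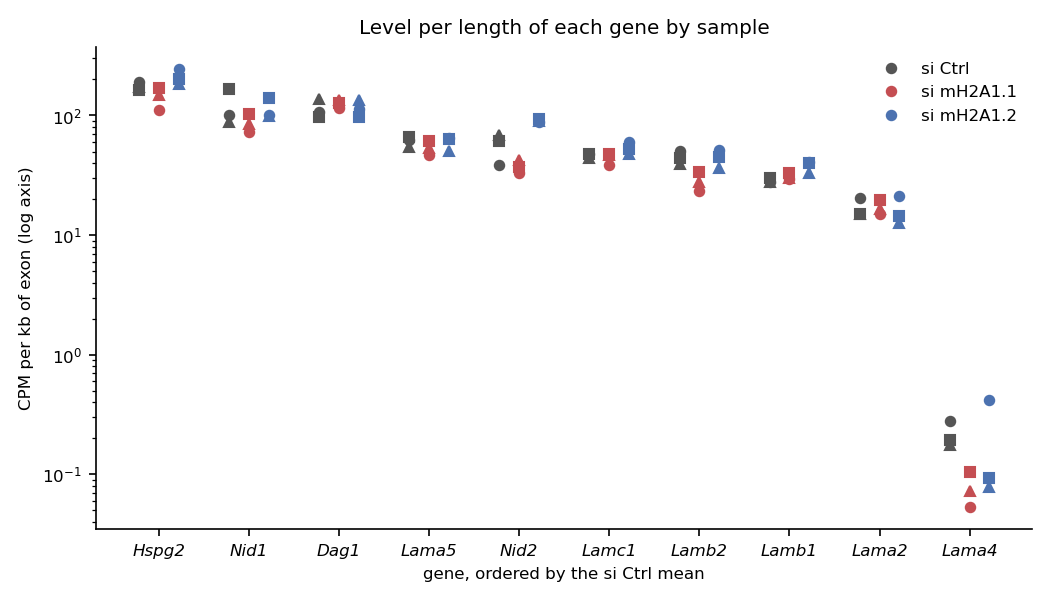
Level of each gene in CPM per kb of exon, on a log axis, with 1 point for each of the 9 libraries and the genes ordered by their mean in si Ctrl (circle, square and triangle are replicates 1, 2 and 3). The si Ctrl means run from 175 for Hspg2 to 0.216 for Lama4, and Lama4 lies far below every other gene in all groups.

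Of the alpha chain mRNA in si Ctrl, counted per kb over Lama1 to Lama5, Lama5 made up 78.2 ± 3.18%, Lama2 21.5 ± 3.10% and Lama4 0.274 ± 0.0534% (SD, n = 3). Lama5 encodes the alpha5 chain, a broadly expressed chain of mature basement membranes. With the longest transcripts the shares were 67.9 ± 4.06% for Lama5 and 31.6 ± 3.96% for Lama2, so Lama5 led under both lengths. Of the beta chain mRNA, Lamb2 made up 56.5 ± 1.46%, Lamb1 36.4 ± 3.56% and Lamb3 7.13 ± 2.18% (all exons). With the longest transcripts the order of the first pair turned, with Lamb1 at 46.8 ± 4.03% and Lamb2 at 45.9 ± 1.76%.

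The first comparison was si mH2A1.1 against si Ctrl. Lamb2, the beta2 chain, was the 1 gene of the 10 that fell, and none rose. Across all genes 6.18% were called higher and 4.93% lower at an adjusted p of 0.05 or less (edgeR's quasi-likelihood test with Benjamini-Hochberg adjustment), so 1 lower call in 10 genes was near that background. None of the 10 met the stricter call, an adjusted p below 0.01 together with a log2 change of 0.8 or more in size, which 1.8% of all genes met. The groups did not overlap for 2 of the 10, Lamb2 and Lama4, against 34.2% of all genes. The median log2 fold change of the 10 was -0.24 and that of all genes -0.01, with 7 of the 10 and 50.9% of all genes below 0. With the replicate number as a block Lamb2 and Nid2 were called, with 20.8% of all genes.

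The second comparison was si mH2A1.2 against si Ctrl. None of the 10 genes was called, against 1.37% of all genes higher and 0.982% lower. Lamb1 and Nid2 had an unadjusted p under 0.05 in edgeR, both were called by DESeq2, and limma-voom called neither. The stricter call, met by 0.179% of all genes, was met by none of the 10. The groups did not overlap for 3 of the 10, Lamb1, Lamc1 and Nid2, all higher in si mH2A1.2, against 22.5% of all genes. Both the 10 and all genes had a median log2 fold change of 0.00. Libraries with the same replicate number deviated together in all 3 comparisons, most strongly in this one. With the number as a block Nid2 (log2 fold change 0.73, adjusted p = 0.0279) and Lamb1 (0.41, adjusted p = 0.0417) rose, with 5.14% of all genes called.

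The third comparison set the 2 knockdowns against each other. Nid2 and Lamb2 were lower in si mH2A1.1 than in si mH2A1.2, and none of the 10 was higher, against 12% of all genes called higher and 10.5% lower. Nid2 was the 1 gene to meet the stricter call, which 6.38% of all genes met. For 4 of the 10, Lamb1, Lamb2, Nid2 and Hspg2, the groups did not overlap, all lower in si mH2A1.1, against 39.7% of all genes. For the 10 the median log2 fold change was -0.34 and for all genes -0.01, with 8 of the 10 and 50.9% of all genes below 0. The first and second comparisons share their control libraries and each shares a knockdown with the third, so the 3 are not independent of each other.

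**Figure D2:**
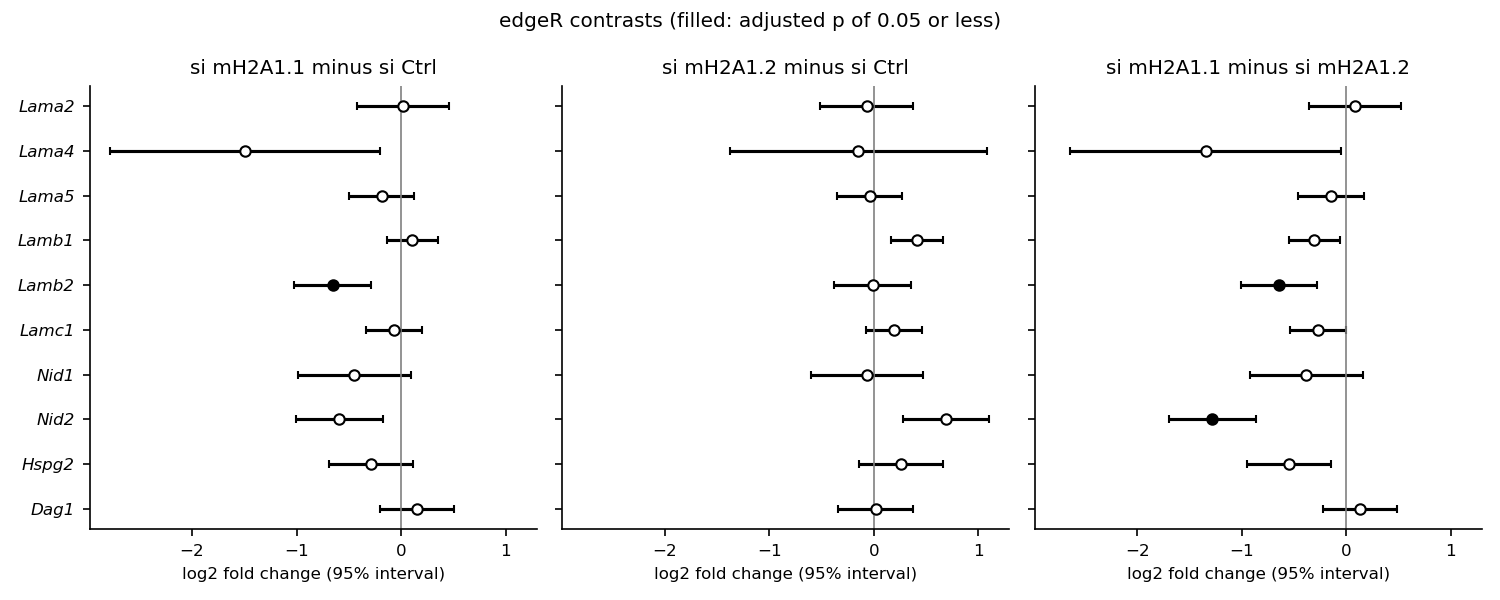
Log2 fold change of the 10 genes in each of the 3 comparisons, with bars for the 95% interval of the edgeR fit and filled points for an adjusted p of 0.05 or less. Filled points stand at Lamb2 in the first panel (-0.66) and at Lamb2 (-0.64) and Nid2 (-1.28) in the third, and the widest bars belong to Lama4.

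Of the alpha chains, Lama2, the merosin chain lost in congenital muscular dystrophy, read 334, 245 and 246 CPM in si Ctrl, 244, 319 and 271 in si mH2A1.1 and 344, 236 and 207 in si mH2A1.2. The 3 groups overlapped throughout. Its log2 fold change was 0.01 (95% interval -0.43 to 0.46) in si mH2A1.1 and -0.07 (-0.51 to 0.37) in si mH2A1.2 against si Ctrl, and the first of these intervals runs from -25.6 to 37.2% as a change from the control mean. Lama5 read 710, 755 and 627 CPM in si Ctrl, 537, 696 and 606 in si mH2A1.1 and 732, 725 and 579 in si mH2A1.2. Those groups overlapped too, with log2 fold changes of -0.19 (-0.50 to 0.13) and -0.04 (-0.35 to 0.27) against si Ctrl.

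Lama4, the alpha4 chain of vessel and nerve basement membranes, was the least abundant of the 10. It read 3.37, 2.34 and 2.11 CPM in si Ctrl, which are 126, 88 and 82 counts. In si mH2A1.1 it read 0.642, 1.26 and 0.875 CPM (26, 51 and 38 counts), below every control library. In si mH2A1.2 it read 5.01, 1.12 and 0.940 CPM, with replicate 1 above and replicates 2 and 3 below every control library. The log2 fold change in si mH2A1.1 was -1.49 (SE 0.58, adjusted p = 0.118) in edgeR and was not called, while both DESeq2 fits called it. Without replicate 1 of si mH2A1.2, a library that enters the shared estimate of the spread, it was -1.50 in edgeR with an adjusted p of 0.0153. The log2 fold change in si mH2A1.2 was -0.15 with all libraries and -1.34 (adjusted p = 0.116) without replicate 1. The difference between the knockdowns went from -1.34 (adjusted p = 0.125) with that library to -0.16 (adjusted p = 0.783) without it.

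Of the beta chains, Lamb2 (chr9:108479736-108490530, plus strand) fell in si mH2A1.1 while Lamb1 (chr12:31265234-31329644, plus strand) did not pass the test. Lamb2 read 305, 270.0 and 240.3 CPM in si Ctrl, 142, 207 and 169 in si mH2A1.1 and 312, 274 and 223 in si mH2A1.2. All 3 si mH2A1.1 libraries lay below all 6 others, and the si mH2A1.2 and si Ctrl libraries overlapped. The change of Lamb2 in si mH2A1.1 from si Ctrl was -36.5% (95% interval -50.8 to -18.1%), a log2 fold change of -0.66 (SE 0.17, adjusted p = 0.0330). It was -0.64 (SE 0.17, adjusted p = 0.0203) against si mH2A1.2, and -0.01 (SE 0.16, adjusted p = 0.985) between si mH2A1.2 and si Ctrl. Its call against si Ctrl was lost when any 1 of the 3 si Ctrl libraries, replicate 1 or 3 of si mH2A1.1 or replicate 2 of si mH2A1.2 was left out (adjusted p from 0.0543 to 0.127, log2 fold change from -0.75 to -0.53). Its call against si mH2A1.2 was lost without replicate 1 or 3 of si mH2A1.1 or replicate 1 or 2 of si mH2A1.2 (adjusted p from 0.0597 to 0.0805).

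Lamb1, the beta1 chain found in most laminins of the fibre surface, read 276, 300.4 and 274 CPM in si Ctrl, 292, 329 and 295 in si mH2A1.1 and 408, 395 and 330.0 in si mH2A1.2. The si mH2A1.2 libraries lay above all others, by little in replicate 3, and the si Ctrl and si mH2A1.1 libraries overlapped. Its log2 fold change was 0.41 (SE 0.11, adjusted p = 0.0873) in si mH2A1.2 and 0.11 (SE 0.11, adjusted p = 0.555) in si mH2A1.1 against si Ctrl, and -0.31 (SE 0.11, adjusted p = 0.0694) between the knockdowns. With the replicate block the last was called (-0.31, adjusted p = 0.0377), as was the first.

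**Figure D3:**
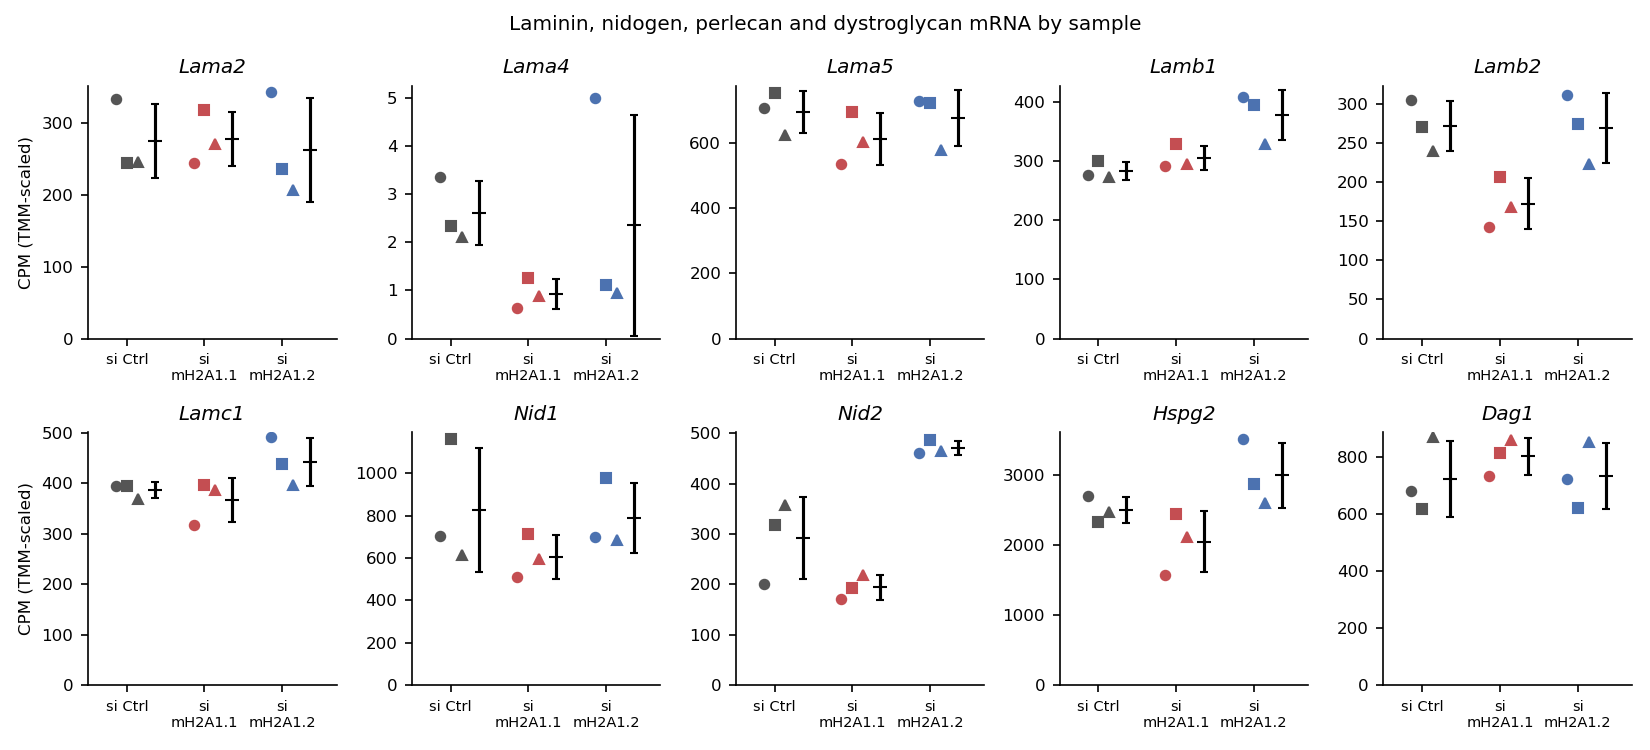
TMM-scaled CPM of each gene in each of the 9 libraries (circle, square and triangle are replicates 1, 2 and 3), with the mean and SD of the 3 libraries of a group beside them. Lamb2 lies lowest in si mH2A1.1 (142 to 207 CPM), Nid2 highest in si mH2A1.2 (460.1 to 486 CPM), and Lama4 in si mH2A1.2 is split between 1 library at 5.01 CPM and the other two near 1.

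Within each library the log2 ratio of Lamb2 to Lamb1 (counts per kb of exon) was 0.85, 0.55 and 0.52 in si Ctrl, -0.33, 0.04 and -0.10 in si mH2A1.1 and 0.32, 0.18 and 0.14 in si mH2A1.2. The 3 groups did not overlap: si Ctrl was highest, si mH2A1.2 lay between, and si mH2A1.1 was lowest. The ratio fell by 0.77 (SE 0.15) on the log2 scale in si mH2A1.1 and by 0.43 (SE 0.12) in si mH2A1.2 against si Ctrl, and it was 0.34 (SE 0.12) lower in si mH2A1.1 than in si mH2A1.2 (two-sided exact permutation p = 0.1 for each). That p is the smallest that 3 libraries against 3 can give, and it became 0.171 after adjustment over the 12 tests of 4 ratios. A ratio within a library does not depend on the scaling between libraries, and it shows unequal change of the pair only. As a share of beta chain mRNA, Lamb2 went from 56.5 ± 1.46% in si Ctrl to 43.2 ± 3.30% in si mH2A1.1 and 50.6 ± 0.498% in si mH2A1.2, and Lamb1 from 36.4 ± 3.56% to 47.3 ± 2.46% and 43.7 ± 2.39% (SD, n = 3).

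**Figure D4:**
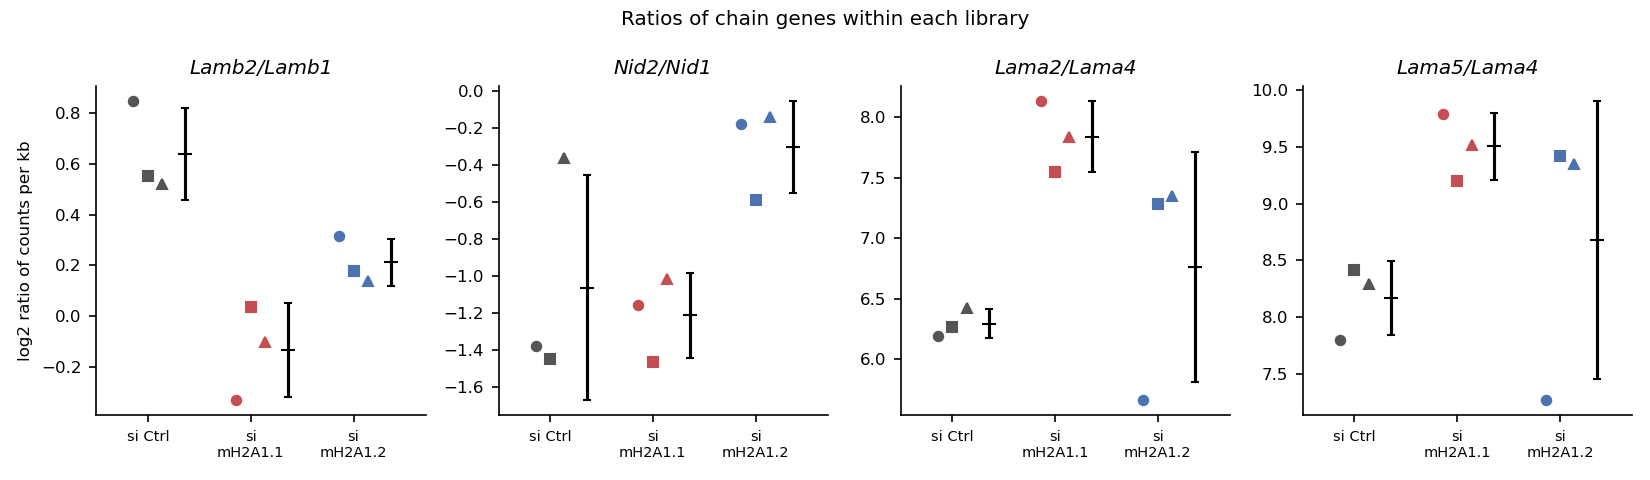
Log2 ratio of counts per kb between gene pairs within each of the 9 libraries, with the mean and SD of each group beside the points (circle, square and triangle are replicates 1, 2 and 3). Lamb2/Lamb1 separates all 3 groups, from 0.52 to 0.85 in si Ctrl down to -0.33 to 0.04 in si mH2A1.1, while the Lama4 ratios in si mH2A1.2 are split by replicate 1.

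Lamc1, the gamma1 chain that nearly all of these laminins share, read 396, 395 and 368 CPM in si Ctrl, 318, 398 and 387 in si mH2A1.1 and 492, 438 and 397 in si mH2A1.2. The si mH2A1.2 libraries lay above si Ctrl, the closest pair at 397 and 396 CPM, and si mH2A1.1 overlapped both. Its log2 fold change was -0.07 (95% interval -0.34 to 0.20) in si mH2A1.1 and 0.20 (-0.07 to 0.46) in si mH2A1.2 against si Ctrl, and neither was called.

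The ratios of Lama2 and Lama5 to Lama4 rest on 26 to 182 Lama4 counts a library. Both share Lama4 as the denominator, so they are not separate findings. Lama2/Lama4 was 1.54 (SE 0.18) higher on the log2 scale in si mH2A1.1 than in si Ctrl and Lama5/Lama4 1.33 (SE 0.25) higher, without overlap (two-sided exact permutation p = 0.1 for each, 0.171 adjusted). In si mH2A1.2 they differed from si Ctrl by 0.47 (SE 0.55, exact permutation p = 0.4) and 0.51 (SE 0.73, exact permutation p = 0.6).

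The nidogens, which bind the laminin gamma1 chain and tie it to type IV collagen, differed from each other, and Nid2 (chr14:19751265-19811787, plus strand) held the largest difference of the 10 that was called. Nid2 read 201, 317 and 357 CPM in si Ctrl, 170.0, 193 and 218 in si mH2A1.1 and 460.1, 486 and 465 in si mH2A1.2. Every si mH2A1.2 library lay above every other library, and si mH2A1.1 overlapped only replicate 1 of si Ctrl. Nid2 in si mH2A1.1 differed from si mH2A1.2 by -58.8% (95% interval -69.2 to -45.0%), a log2 difference of -1.28 (SE 0.19, adjusted p = 0.00168) that was called without each of the 9 libraries in turn. Against si Ctrl the log2 fold change was 0.69 (SE 0.19, adjusted p = 0.0908) in si mH2A1.2 and -0.59 (SE 0.19, adjusted p = 0.0662) in si mH2A1.1. With the replicate block both were called, at 0.73 (adjusted p = 0.0279) and -0.57 (adjusted p = 0.0267). Without replicate 1 of si Ctrl, its lowest control library, the value in si mH2A1.1 was -0.80 with an adjusted p of 0.0136.

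Nid2 shares 437 bp of exon, 8.45% of its exon length, with Rtraf on the opposite strand, and whether the library kept the strand is not given in the sources used here. Rtraf had 35621 counts over all libraries and Nid2 110031, and Rtraf differed by -0.12 (log2, SE 0.11, adjusted p = 0.493) between si mH2A1.1 and si mH2A1.2. Shared antisense exon was a smaller part of the exon length for Nid1 (2.06%, 143 bp, with a gene of 113 counts). The same held for Lama2 (3.86%, 631 bp, with a gene of 1 count).

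Nid1 read 701, 1159 and 615 CPM in si Ctrl, 509, 713 and 593 in si mH2A1.1 and 698, 978 and 686 in si mH2A1.2. Replicate 2 was the highest library of each group, and the groups overlapped. The log2 fold change was -0.45 (95% interval -0.99 to 0.09) in si mH2A1.1 and -0.07 (-0.60 to 0.47) in si mH2A1.2 against si Ctrl. The log2 ratio of Nid2 to Nid1 was 0.91 lower (SE 0.20) in si mH2A1.1 than in si mH2A1.2 without overlap (two-sided exact permutation p = 0.1, 0.171 adjusted), and Nid2 made up 44.8 ± 4.23% of nidogen mRNA in si mH2A1.2, 30.2 ± 3.30% in si mH2A1.1 and 32.8 ± 9.52% in si Ctrl (SD, n = 3).

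Perlecan (Hspg2) read 2703, 2329 and 2462 CPM in si Ctrl, 1577, 2443 and 2113 in si mH2A1.1 and 3507, 2867 and 2604 in si mH2A1.2. All si mH2A1.2 libraries lay above all si mH2A1.1 libraries, and si Ctrl overlapped both. The difference between the knockdowns was -0.55 (log2, SE 0.18, adjusted p = 0.0515), just outside the threshold, and DESeq2, limma-voom and the fit without a filter called it. Against si Ctrl the log2 fold changes were -0.29 (95% interval -0.69 to 0.11) and 0.26 (-0.14 to 0.66).

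Dag1, the receptor, read 682, 618 and 873 CPM in si Ctrl, 732, 816 and 861 in si mH2A1.1 and 725, 621 and 854 in si mH2A1.2. Its groups overlapped in all 3 comparisons, with log2 fold changes of 0.15 (95% interval -0.21 to 0.51) in si mH2A1.1 and 0.02 (-0.34 to 0.37) in si mH2A1.2 against si Ctrl. Dag1 lies on chromosome 9, 216 kb from Lamb2.

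The partners of these genes were followed in 5 lists. The shares over all genes are the background for their counts and for those of the marker lists below. In si mH2A1.1 against si Ctrl 6.18% of all genes were called higher and 4.93% lower. In si mH2A1.2 against si Ctrl the shares were 1.37% and 0.982%, and between the knockdowns 12% and 10.5%. Of the other 5 laminin chains, none was called in si mH2A1.2 against si Ctrl, where none had an unadjusted p under 0.05 either. Between the knockdowns 2 were higher in si mH2A1.1, among them Lama3 (1.81, adjusted p = 0.0310), a chain of the laminin of epithelia. Lama1 was lower (-2.21, adjusted p = 0.0371). Lama3 and Lama1 had means of 1.04 CPM or less in both knockdowns. The median log2 fold change of the list was 0.10, -0.16 and 0.26 in the 3 comparisons in the order given above.

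Of the other basement membrane components, 20 of 21 were tested. In si mH2A1.1 against si Ctrl, Frem1 rose (2.85, adjusted p = 0.0130) and Smoc2 (-1.71, adjusted p = 0.00331) and Sparc (-0.64, adjusted p = 0.0258), which binds collagen, fell. In si mH2A1.2, Smoc2 (1.14, adjusted p = 0.0266) and the peroxidasin gene Pxdn (1.08, adjusted p = 0.0234), whose enzyme crosslinks type IV collagen, rose. Between the knockdowns 7 were lower in si mH2A1.1 and 1 higher, with Smoc2 at -2.86, Col4a6 at -1.81, Pxdn at -1.55 and Frem1 at 1.97. The list's median log2 fold change was -0.17, 0.50 and -0.44. The group means of Frem1, Smoc2 and Col4a6 lay between 0.272 and 12.0 CPM, against 2192 to 4894 CPM for Sparc. Col4a1 and Col4a2, the main type IV collagen chains, chosen after their values were seen, were among the 7 at -0.56 (adjusted p = 0.0229) and -0.55 (adjusted p = 0.0291).

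All 6 laminin receptors other than dystroglycan were tested. Itga3, which pairs with beta1 integrin, fell in si mH2A1.1 (-0.94, adjusted p = 0.0142). In si mH2A1.2, Itgb4 rose (1.88, adjusted p = 0.0195) and Itga6 fell (-0.62, adjusted p = 0.0363). Between the knockdowns Bcam (1.09) and Itga7 (0.94), the main muscle laminin integrin, were among 3 genes higher in si mH2A1.1, and Itgb4 (-2.02) and Itga3 (-1.20) were lower. Itga7 was the most abundant of those named, with means of 2639 CPM in si mH2A1.1 and 1375 CPM in si mH2A1.2. Itgb4 was the least abundant, with means of 1.87 CPM in si Ctrl, 1.70 in si mH2A1.1 and 6.90 in si mH2A1.2. The median log2 fold change was -0.09, -0.23 and 0.21.

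In the dystrophin complex, which anchors dystroglycan to the cytoskeleton, 15 of 15 genes were tested. Nos1 rose in si mH2A1.1 (1.03, adjusted p = 0.0153), at means of 1.80 CPM against 0.880 CPM in si Ctrl. The syntrophin gene Sntb1 (-0.63, adjusted p = 0.0489) and the sarcoglycan gene Sgcb (-0.58, adjusted p = 0.0280) fell in si mH2A1.2. Between the knockdowns 4 were higher in si mH2A1.1, among them Nos1 (1.67), Sntb1 (1.06) and Sgca (0.59), and 2 were lower, among them Sspn (-0.54). Over this list the median log2 fold change was -0.14, -0.04 and -0.02.

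Of the 18 genes listed under dystroglycan glycosylation, not all of them specific to dystroglycan, 2 rose in si mH2A1.1, among them Dolk (0.61, adjusted p = 0.0240). Only Dpm3 (-0.67, adjusted p = 0.0360) fell there. None was called in si mH2A1.2 (4 at an unadjusted p under 0.05), where Dolk stood at 0.57 (adjusted p = 0.0655). Between the knockdowns 3 were higher in si mH2A1.1, among them Pomgnt2 (1.08), and Dpm3 (-0.54) and Pomt2 (-0.38) were lower. Its median log2 fold change was 0.06, -0.04 and 0.01.

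**Figure D5:**
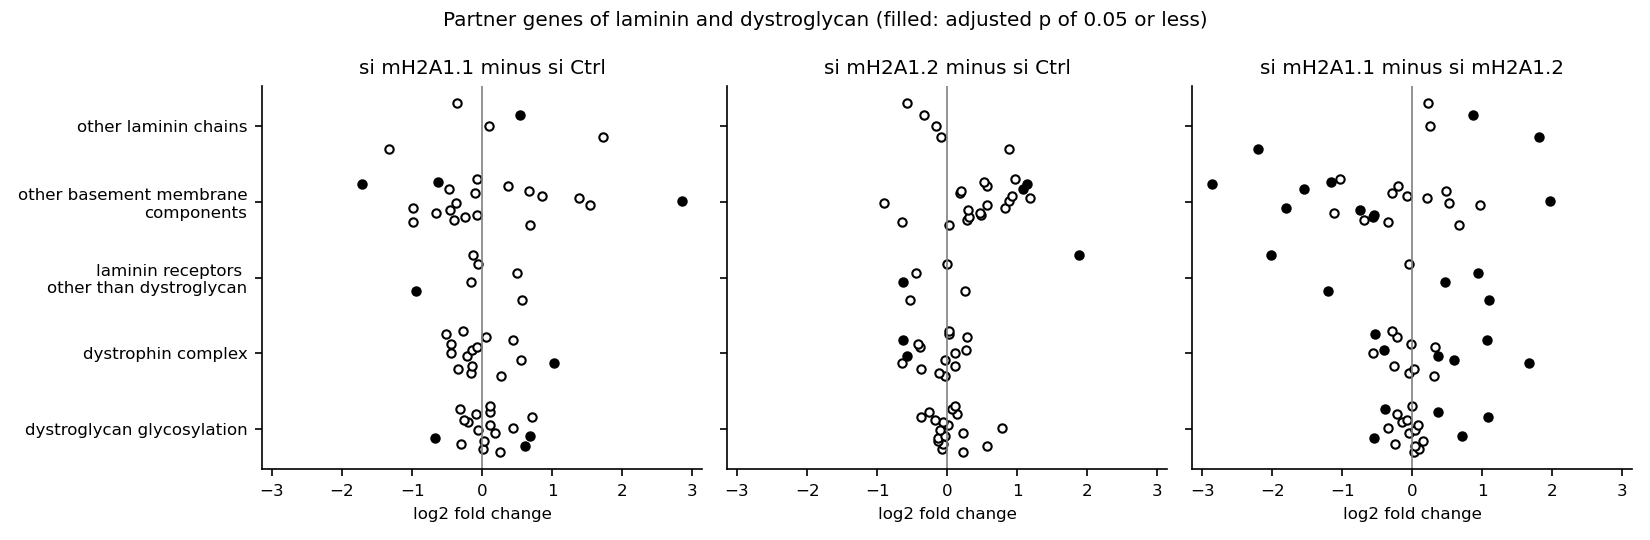
Log2 fold change of each tested gene of the 5 partner lists in the 3 comparisons, 1 point a gene, filled for an adjusted p of 0.05 or less. In the third panel 7 of the other basement membrane components are filled to the left of 0 and 1 to the right, while the genes of dystroglycan glycosylation lie close to 0 with 5 filled.

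Other markers moved with the groups. Markers of fibroblasts (7 genes, led by Col1a1 and Col3a1, which myoblasts also express) summed to between 10112 and 13119 CPM in si Ctrl, 3692 to 6593 in si mH2A1.1 and 16592 to 23203 in si mH2A1.2. Within this list only Col1a1 and Col3a1 had that order in their own means. Dcn stood at 329 CPM in si Ctrl and 342 in si mH2A1.1, and Lum at 16.0 in si Ctrl and 11.2 in si mH2A1.2. Among the 10 genes only the means of Nid2, Hspg2 and Lamc1 had the order of the sum. In the main fit none of these was called against si Ctrl in either knockdown. Of the 7, 3 fell and 1 rose in si mH2A1.1, and none was called in si mH2A1.2 (3 at an unadjusted p under 0.05). The 5 proliferation markers summed to between 262 and 420 CPM in si Ctrl, 376 to 791 in si mH2A1.1 and 205 to 309 in si mH2A1.2, and all 5 were higher in si mH2A1.1 than in si mH2A1.2. Of the 10 myotube markers, 3 fell in each knockdown against si Ctrl, and 8 of 8 interferon response genes rose in si mH2A1.1 and none in si mH2A1.2 (0 at an unadjusted p under 0.05), with sums of 30.1 to 36.2 CPM in si Ctrl, 138 to 544 in si mH2A1.1 and 27.7 to 45.0 in si mH2A1.2. The part of these changes in the values of the 10 genes was not tested. In bulk RNA, fewer cells of a kind and less RNA per cell cannot be told apart, which applies to each fold change above.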

How the data were processed

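The deposited table held estimated counts per gene as whole numbers, which the authors made with Salmon in quasi-mapping mode on GRCm38 and imported into DESeq2. The annotation release is not given in the sources used here, and symbols were matched to GENCODE M21 (52762 of 52780 IDs). A second deposited table, the same counts divided by 1 constant per sample, was not used. No count is tied to a splice isoform.

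Genes were filtered with filterByExpr and all 9 libraries were fitted in 1 edgeR model (version 4.0.16, R 4.3.3, TMM, quasi-likelihood) with no block, with all 3 contrasts adjusted over 19545 genes and the adjusted p threshold of 0.05 from the study's methods. Intervals are 95%, and counts of 3 or fewer were taken as the floor (at most 0.0812 CPM). CPM and depth cover counting error only. Ratios used counts per kb of exon and exact permutation tests (scipy 1.17.1). DESeq2 (1.42.0), limma-voom (limma 3.58.1), other filters, size factors, a replicate block and fits without each library were the alternatives. The code was tested on simulated data.

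Same-numbered libraries of si mH2A1.2 and si Ctrl had correlated deviations from their group means in all 3 pairs (r across genes 0.331, 0.291 and 0.196). In the other 2 comparisons these correlations were weaker, at 0.0841 to 0.116. Over all 3 comparisons every same-numbered pair had a higher r than any pair of different numbers (at most 0.0358). The main fit used no block, so it does not take this pairing into account. The sample names in the labels run consecutively across the 3 groups within each replicate number, without saying what they mark, and blocked values are given wherever they change a call of the 10 genes.

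The 10 genes and the lists were chosen with earlier results of these data known, so their counts are descriptions. All 10 genes were named, and from each other list at most 4 called genes per contrast, those with the largest absolute log2 fold change, except for some results that are not reported here. Promoter sequences are RefSeq's.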

Additional observations from a re-analysis of the deposited data

How the results depend on the processing

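Of 540 values of the 10 genes under the alternatives, 483 kept their direction and their side of the threshold, 10 lost a call, 25 gained one and 22 changed sign, all of the last without 1 library and for genes not called. The cause was not tested. Of the 10 genes, si mH2A1.1 against si Ctrl called 1, with 2 without a filter, 3 in both DESeq2 fits, 2 in the 6 libraries of the contrast, 0 at the stricter call and 0 to 2 without 1 library. For si mH2A1.2 against si Ctrl it was 0, with 1 without a filter, 2 in both DESeq2 fits and 0 to 0 without 1 library. Between the knockdowns it was 2, with 4 in both DESeq2 fits, 1 at the stricter call and 1 to 3 without 1 library.

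Over all genes, 2171 were called in si mH2A1.1 against si Ctrl (3422 and 3354 with DESeq2, 352 stricter, 605 to 2928 without 1 library), 460 in si mH2A1.2 against si Ctrl (1110 and 1113 with DESeq2, 35 stricter, 74 to 544 without 1 library) and 4397 between the knockdowns (1247 stricter, 2251 to 4616 without 1 library).

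With the replicate block 2 of the 10 genes were called in si mH2A1.1 (4065 genes in all; Nid2 at -0.57, adjusted p = 0.0267), 2 in si mH2A1.2 (1005 in all) and 5674 genes between the knockdowns, where Lamb1 joined at -0.31 (adjusted p = 0.0377). Each of the 18 comparisons of a library with the libraries of another group gave the highest correlation with its own number. Within pairs of the same number, the ratio differences had the same size by construction and an exact sign-flip p of at least 0.25, the smallest that 3 pairs allow.

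Without 1 library at a time the log2 fold change in si mH2A1.1 against si Ctrl ran from -0.10 to 0.18 for Lama2 and from -0.13 to 0.028 for Lamc1. In si mH2A1.2 against si Ctrl it ran from -0.32 to 0.10 for Lama2, -1.34 to 0.23 for Lama4, -0.12 to 0.063 for Lama5, -0.13 to 0.11 for Lamb2, -0.26 to 0.26 for Nid1 and -0.11 to 0.17 for Dag1. Between the knockdowns it ran from -0.064 to 0.33 for Lama2. The log2 Nid2/Nid1 difference in si mH2A1.1 against si Ctrl ran from -0.34 to 0.20, positive without replicate 3 of si Ctrl. Depth was thinnest for Lama4, at 26 to 182 counts a library.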

Other observations

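Over the 9 libraries, the genes whose log2 CPM followed Lamc1 most closely were E430024I08Rik (Pearson r = 0.969), Zfp422 (0.969) and Zmym4 (0.968) of 14380 genes with a mean of at least 1 CPM. Among the genes described above Hspg2 came closest, at rank 36 with r = 0.936, and Dag1 was the only one with a negative value (r = -0.264). The points share libraries and the 3 groups, so these are descriptions.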
